A study of Rattus norvegicus with 30 samples.

Results

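REF cells, a line of rat embryonic fibroblasts, were compared after 2 days without serum (day 2, 3 libraries) and without starvation (control, 3 libraries). These are 6 of the 30 libraries of the series, chosen by their labels alone. All 10 groups of the series hold 3 biological replicates each of the same line, which the labels list as not transformed. The other groups were starved for 3, 4, 6, 8, 10, 12, 14 or 16 days, and here they serve for the estimate of spread and for levels at later days. No treatment other than serum withdrawal is given, and the medium of either group is not given in the sources used here. Total RNA was sequenced, and the values are FPKM, a read-out of transcript level that is corrected for gene length and for library size. Of 17353 genes in the table, the 8940 with a mean of at least 1 FPKM over the 30 libraries were tested.

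Fibroblasts that lose serum leave the division cycle and enter quiescence, a state they can hold for a long time and leave again when serum returns. In cycling cells the retinoblastoma protein and its relatives, the pocket proteins, are switched off by cyclin-dependent kinases, which frees E2F factors to turn on genes of DNA replication. In resting cells pocket proteins and the DREAM complex hold down E2F-driven genes and, through CHR motifs, genes of mitosis. Serum also carries cholesterol and growth factors, so its removal takes away a lipid supply together with mitogens. The 2 groups differ in serum and in division at once, and the design cannot tell these apart. In bulk RNA, fewer cells of a kind and less RNA per cell cannot be told apart either.

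The FPKM sums of the 6 libraries ran from 646658 to 707851, genes above 0 from 10130 to 10580, and genes at 1 FPKM or more from 8792 to 8879. Between 9.14% and 12.1% of that sum came from the 10 highest genes. Short RNA genes held 0% to 0.792% of the sum in control and 0.132%, 1.61% and 2.47% at day 2, highest in day 2 replicates 2 and 3. With these genes left out and the libraries rescaled, 757 genes rose at least 2-fold and 767 fell. The table holds no counts, so the depth behind each value is unknown and no counting interval is given. Across genes, replicates 2 and 3 of a group were closest to each other (Pearson's r of log2 values of 0.990 in control and 0.991 at day 2) and replicate 1 was farther off (0.984 to 0.988), which describes the libraries and has no test. With replicates 2 and 3 only, in all groups, 2645 genes rose and 2639 fell. Of 16 fibroblast markers 5 were under 1 FPKM in all 6 libraries, 3 of them listed at 0. Some others were high, with Vim at 4623 to 5295 FPKM in control and 5335 to 5655 at day 2. Col1a1, Col3a1 and Fn1 were also abundant in every library. Those listed at 0 were Col1a2, Fap and Twist2, and Thy1 was among those under 1 FPKM. A value of 0 can be a failed estimate or an absent transcript, and which of these holds was not tested. It is given below only as listed at 0, for markers of every cell type. Of 15 macrophage markers 9 were listed at 0 in all 6 libraries, and their summed level was 7.45 to 7.87 FPKM in control and 2.16 to 2.51 at day 2. In control most of that sum was Csf1r, which went from a mean of 4.33 to 0.21 FPKM, and Ptprc, Adgre1 and Itgam were among those at 0. The endothelial markers summed to 4.81 to 6.63 FPKM in control and 14.0 to 20.1 at day 2, nearly all of it Flt1, while Cdh5, Kdr and Cldn5 were listed at 0. Skeletal muscle markers belong to a list of skeletal and cardiac muscle genes. That list summed to 626 to 646 FPKM in control and 448 to 461 at day 2. Its myogenic factor Myod1 was at 216, 243 and 253 FPKM in control, so fibroblast markers were not the only ones present. The part of cells of any of these other kinds in the results was not tested.

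At day 2, 2680 genes rose (30% of those tested) and 2745 fell (30.7%), so 60.7% of all genes passed the threshold of adjusted p under 0.05 in one direction or the other. The calls come from limma on log2(FPKM + 1) with Benjamini-Hochberg adjustment over the 8940 genes. A rise or fall on its own was therefore common, and sizes are given beside each count. Groups without overlap were common too. Of the 8940 genes, 2736 had every day 2 library above every control library, and 2898 had every one below. At least 2-fold changes were 665 rises (7.44%) and 754 falls (8.43%). Large changes were mostly falls. By at least 4-fold 106 genes rose and 256 fell, and by at least 8-fold 20 rose and 142 fell. The median change over all genes tested was 0.00 and its quartiles were -0.41 and 0.41 (log2). All folds are on the log2(FPKM + 1) scale, which understates changes of low genes.

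**Figure D1:**
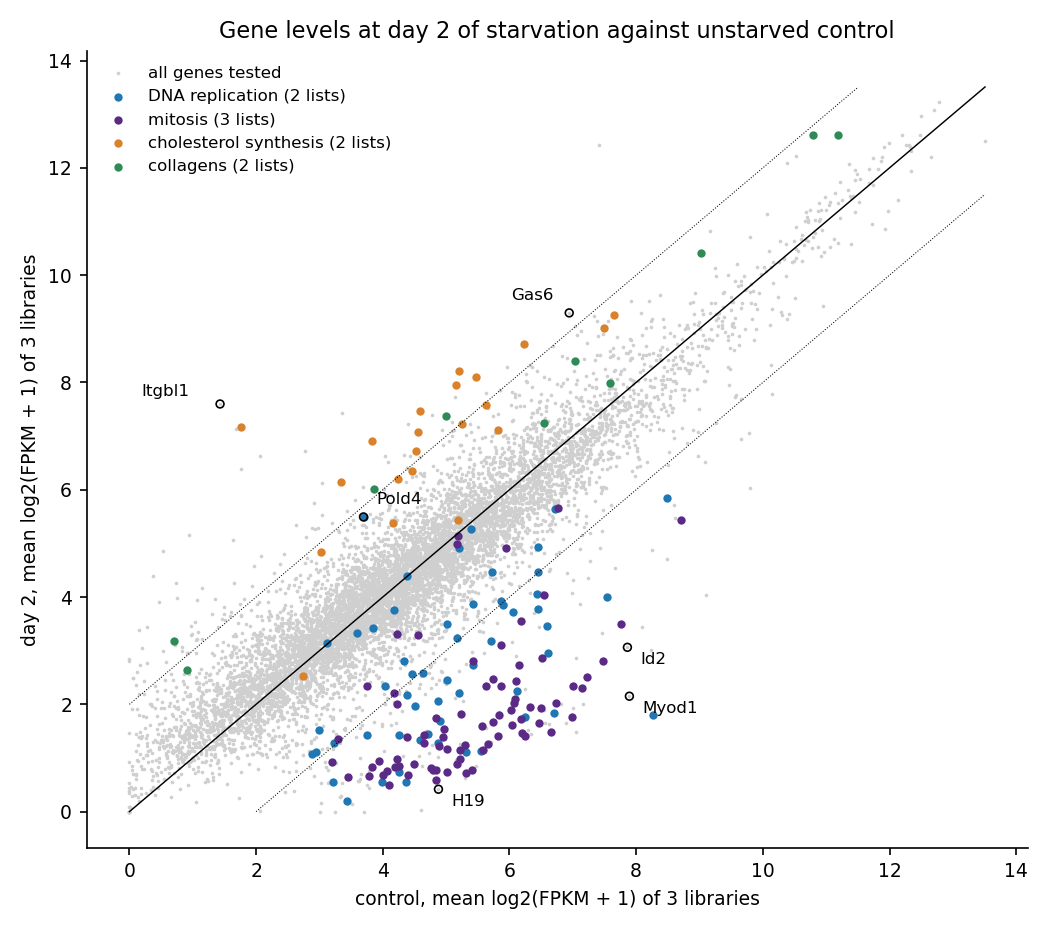
Mean log2(FPKM + 1) of the 3 control libraries (x axis) against that of the 3 day 2 libraries (y axis) for the 8940 genes tested, with 4 themes coloured and 6 genes circled. The solid line marks equal levels and the dotted lines 4-fold changes. Most genes of replication and mitosis lie far below the line, Pold4 lies above it, and nearly all genes of cholesterol synthesis and the collagens lie above it.

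Transcripts of most origin licensing genes fell, and those of some origin complex subunits did not pass the test. Of 19 replication licensing genes 17 fell, none rose and the median change was -3.13 (log2). Orc1, the subunit of the origin recognition complex that comes and goes with the cycle, was 8.68, 9.67 and 11.2 FPKM in control and 0.307, 0.0693 and 0.0842 at day 2. Its groups did not overlap, and it fell by 3.23 ± 0.14 (log2 ± SE). The core subunits Orc3 and Orc4 did not pass, with changes of 0.02 ± 0.14 and 0.01 ± 0.17 and overlapping libraries (adjusted p = 0.896 and 0.955). The loading factor Cdt1 was 41.2, 38.4 and 36.2 FPKM in control and 1.59, 1.03 and 0.888 at day 2, a log2 change of -4.20 ± 0.16. The helicase subunit Mcm5 was 71.8, 73.9 and 80 FPKM in control and 2.2, 2.61 and 2.35 at day 2, a log2 change of -4.49 ± 0.20. For both genes every day 2 library lay far under every control library.

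At the fork, 35 of 37 tested genes fell and a single one rose, with a median of -2.22. The exception was Pold4, the smallest subunit of DNA polymerase delta. It was 14.1, 10.4 and 11.6 FPKM in control and 48.1, 42.4 and 41.9 at day 2, so every starved library was above every control library, and it rose by 1.80 ± 0.11 (adjusted p = 3.4e-13). The catalytic subunit of the same enzyme, Pold1 (named here after its values were seen), went the other way, from 29.9, 32.3 and 31.5 FPKM to 4.21, 3.52 and 5.99. By FPKM, which is per length, Pold4 was below Pold1 in each control library and above it in each day 2 library. The PCNA-binding factor Ns5atp9 had the largest fall of the genes ranked by size, a ranking that left some genes out. However, 1 of its 3 day 2 libraries is listed at 0 and the others are at 5.53 and 5.55 FPKM, so the size of its fall is uncertain.

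Supplies for the copied DNA fell with the fork. Of 12 genes of deoxynucleotide supply 11 fell, with a median of -2.13. Thymidine kinase Tk1 was 180, 166 and 178 FPKM in control and 9.37, 9.88 and 8.01 at day 2. Dctpp1, which removes unwanted deoxynucleotides, was 134, 138 and 125 FPKM and then 5.76, 7.12 and 6.07, a log2 change of -4.19 ± 0.31. Neither gene's groups came near each other. Rrm2b, the ribonucleotide reductase subunit used outside S phase, did not pass (-0.33 ± 0.28, adjusted p = 0.327), whereas its S-phase relative Rrm2 fell by 5.07 ± 0.29. Samhd1, which breaks deoxynucleotides down, also fell, by 0.59 ± 0.15. Of 13 tested genes of histone supply and chaperones 11 fell. The histone chaperone Asf1b was 80.7, 79 and 72.7 FPKM in control and 2.31, 2.32 and 1.19 at day 2, the largest fall of that list.

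Mitotic genes had the deepest losses of all lists. All 28 tested genes of spindle and cytokinesis fell (median -4.04), as did all 24 mitotic kinases and checkpoint genes (median -3.51), and 24 of 26 centromere and kinetochore genes (median -3.34). The kinetochore protein Ndc80 was 80.8, 88.9 and 92.1 FPKM in control and 1.65, 2.46 and 2.39 at day 2. Cenpa, the histone that marks centromeres, was 47.3, 35.6 and 42.5 FPKM and then 1.05, 0.339 and 0.812. In neither gene did a starved library come near a control library. Mis12, a base component of the kinetochore, did not pass (-0.04 ± 0.35) and its libraries overlapped. Of the share of all FPKM, spindle and cytokinesis genes held 0.314% to 0.315% in control and 0.0152% to 0.0177% at day 2. The genes that end mitosis by destroying proteins moved apart from each other. Cdc20, an activator of the anaphase-promoting complex, fell from 146, 136 and 145 FPKM to 2.95, 2.74 and 3.33, and the ubiquitin-conjugating enzyme Ube2c fell by 5.21 ± 0.35. Anapc2, a core subunit of that complex, rose slightly, from 72.6, 73.8 and 75.7 FPKM to 88, 97 and 95. In the whole list of cell cycle ubiquitin ligases 15 of 24 fell and 1 rose, with a median of -0.44.

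The promoters of these genes were examined for the letters that E2F, DREAM and NF-Y binding are known by, to see whether the falls line up with what the promoter holds. Promoter windows of 300 bases, 250 before to 50 after the gene start, came from RefSeq on the GRCr8 build, and 7408 of the 8940 genes matched one by symbol or synonym. The E2F-type letters searched were TTTGGCGC, TTTCCCGC, TTTGGCGG and TTTCCCGG, the CHR letters TTTGAA and the CCAAT box CCAAT, each on both strands, and none of these holds the letters of another motif. E2F-type letters stood in 11 of 15 licensing promoters (73.3%) and 16 of 34 fork promoters (47.1%), against 6.2% of all genes tested and 3.4% of all 33469 promoters in the table. CHR letters stood in 18 of 26 spindle and cytokinesis promoters (69.2%), 11 of 19 promoters of mitotic kinases and checkpoint genes (57.9%) and 11 of 23 centromere and kinetochore promoters (47.8%), against 11.4% of genes tested and 18.3% of all promoters. The reverse shares were lower in each list. CHR letters were in 3 of 15 licensing promoters and 3 of 34 fork promoters (8.8%). E2F-type letters were in 4 of 26 spindle and cytokinesis promoters (15.4%), 2 of 19 of mitotic kinases and checkpoint genes and 1 of 23 centromere and kinetochore promoters (4.3%). Some of these lie above the shares over all genes tested, and no difference was tested.

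Sorted by size of fall alone, without any list, the same letters were unevenly spread. CHR letters were in 65 of 115 promoters of genes that fell at least 8-fold (56.5%), 18.7% of those that fell 4-fold to 8-fold, 19.2% of those that fell 2-fold to 4-fold, and 9.8% of those that did not pass. CHR letters and a CCAAT box together were in 43 of the 115 (37.4%), against 4.9% of all genes tested. E2F-type letters were in 16.5%, 18.7% and 10.3% of the 3 classes of falls. They were in 2.2% of genes that rose 2-fold to 4-fold, 4.8% of those that rose at least 4-fold and 5.7% of those that did not pass. For CHR letters the shares in these classes of rises were 9.3% and 13.3%, against 11.4% of all genes tested. A match of letters is a description of the window and not evidence that a factor binds there. These shares carry no test, and the lists and the size classes share genes.

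**Figure D2:**
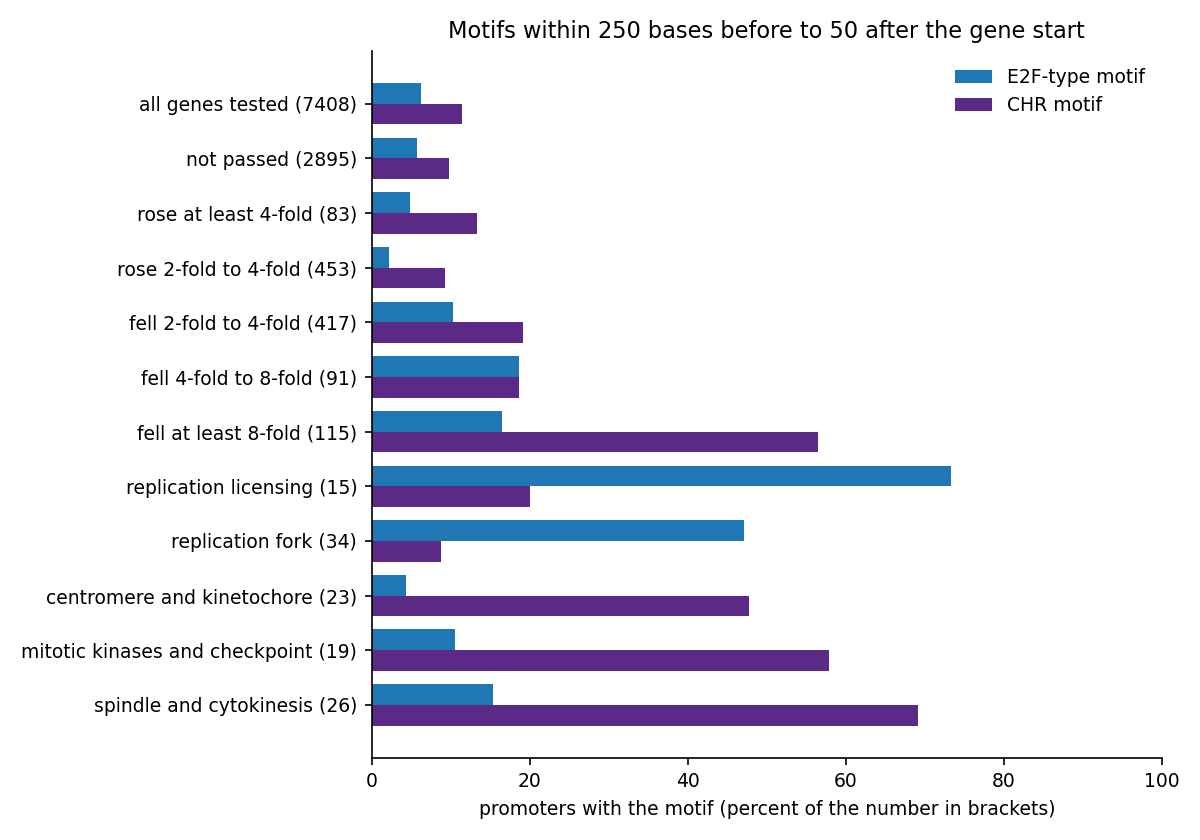
Percent of promoters that hold E2F-type or CHR letters (x axis, bars from 0), for genes sorted by their change at day 2 and for 5 lists of division genes, with the number of promoters in brackets. CHR letters reach 56.5% in genes that fell at least 8-fold and 69.2% in spindle and cytokinesis genes, and E2F-type letters reach 73.3% in licensing genes.

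The promoters of 3 mitotic genes with some of the deepest falls, Plk1, Ccnb2 and Cdc20, show CHR letters and CCAAT boxes close to the gene start. They are printed 5′ to 3′ on the gene's strand from RefSeq GRCr8, with both motifs in capitals on whichever strand they were found.
Plk1 (chr1:186147408-186147707, plus strand): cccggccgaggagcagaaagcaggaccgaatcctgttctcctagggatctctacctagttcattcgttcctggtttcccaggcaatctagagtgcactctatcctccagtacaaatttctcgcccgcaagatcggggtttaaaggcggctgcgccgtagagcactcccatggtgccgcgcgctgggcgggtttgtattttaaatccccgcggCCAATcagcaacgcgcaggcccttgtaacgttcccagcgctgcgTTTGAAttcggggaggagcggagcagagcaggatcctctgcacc
Ccnb2 (chr8:79981609-79981908, minus strand): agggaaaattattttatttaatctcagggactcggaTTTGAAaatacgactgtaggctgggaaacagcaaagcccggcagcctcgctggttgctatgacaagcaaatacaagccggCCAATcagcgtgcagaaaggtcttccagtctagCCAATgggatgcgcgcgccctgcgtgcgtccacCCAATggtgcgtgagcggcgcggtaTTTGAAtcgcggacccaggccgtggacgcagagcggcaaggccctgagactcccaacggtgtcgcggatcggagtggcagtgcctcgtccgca
Cdc20 (chr5:137255750-137256049, minus strand): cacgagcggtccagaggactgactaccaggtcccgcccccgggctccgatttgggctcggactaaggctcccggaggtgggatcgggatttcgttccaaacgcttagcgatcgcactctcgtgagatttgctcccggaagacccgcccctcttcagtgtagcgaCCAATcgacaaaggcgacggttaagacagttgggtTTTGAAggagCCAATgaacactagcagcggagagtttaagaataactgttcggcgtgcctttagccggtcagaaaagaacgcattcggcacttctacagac

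For contrast, 3 genes that fell with DNA replication or chromatin copying, Mcm5, Mcm7 and Ezh2, hold E2F-type letters and CCAAT boxes, in capitals below, and no CHR letters in this window. These promoters and the mitotic ones above are chosen examples, and other genes differ from them. Mcm2 and Top2a hold CHR letters and no E2F-type letters, and the mitotic cyclin Ccnb1 holds CCAAT boxes and no CHR letters.
Mcm5 (chr19:13488563-13488862, plus strand): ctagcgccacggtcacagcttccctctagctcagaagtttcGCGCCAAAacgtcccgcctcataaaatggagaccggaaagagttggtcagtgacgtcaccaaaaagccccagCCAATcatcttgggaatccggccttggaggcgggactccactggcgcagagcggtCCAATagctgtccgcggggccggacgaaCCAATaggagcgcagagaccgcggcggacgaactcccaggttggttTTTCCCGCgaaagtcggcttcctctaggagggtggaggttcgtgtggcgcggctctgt
Mcm7 (chr12:22163129-22163428, minus strand): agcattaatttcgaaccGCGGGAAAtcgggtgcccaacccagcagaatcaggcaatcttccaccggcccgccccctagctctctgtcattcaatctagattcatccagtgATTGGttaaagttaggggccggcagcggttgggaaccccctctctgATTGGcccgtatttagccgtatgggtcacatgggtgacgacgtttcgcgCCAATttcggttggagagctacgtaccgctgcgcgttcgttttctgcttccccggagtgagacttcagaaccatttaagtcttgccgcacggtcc
Ezh2 (chr4:77687134-77687433, minus strand): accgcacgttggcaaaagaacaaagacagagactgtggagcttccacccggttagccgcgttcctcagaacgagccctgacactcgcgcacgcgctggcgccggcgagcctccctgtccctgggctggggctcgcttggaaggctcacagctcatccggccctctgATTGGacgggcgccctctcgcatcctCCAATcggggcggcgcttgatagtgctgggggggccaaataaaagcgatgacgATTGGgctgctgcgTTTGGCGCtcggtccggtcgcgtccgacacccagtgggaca

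Some regulators of the cycle moved in opposite directions within a family. Of the pocket proteins, Rbl1 was 19.5, 28.9 and 31.3 FPKM in control and 2.67, 4.78 and 4.7 at day 2, a log2 change of -2.45 ± 0.18. Rbl2, the pocket protein that dominates in resting cells, was 4.08, 4.28 and 4.11 FPKM and then 9.42, 10.2 and 9.76, a rise of 1.06 ± 0.08 (adjusted p = 4.44e-11). Rb1 itself rose by 0.62 ± 0.10. Per length, Rbl1 was the higher of Rbl1 and Rbl2 in every control library and the lower in every day 2 library. Of 15 tested Rb-E2F and DREAM regulators, Rb1 and Rbl2 were the only ones to rise, and 11 fell. Mybl2, the B-Myb factor that joins the same core complex in dividing cells, was 45.9, 46.3 and 46.1 FPKM in control and 1.28, 1.11 and 1.48 at day 2.

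Of 16 cyclins and cyclin-dependent kinases 12 fell and 3 rose. The D cyclin Ccnd3 fell from 460, 432 and 401 FPKM to 208, 199 and 203, while Ccnd2 rose from 1.64, 1.51 and 1.57 FPKM to 3.46, 4.68 and 3.97 and stayed far below Ccnd3. Ccng1 and Ccng2, atypical cyclins linked to arrest, rose by 1.16 ± 0.11 and 1.12 ± 0.10. The inhibitors of cyclin-dependent kinases did not move as one. Cdkn1a was 153, 120 and 116 FPKM in control and 360, 290 and 248 at day 2, Cdkn2b rose by 0.38 ± 0.10, and Cdkn1b by 0.26 ± 0.10 (adjusted p = 0.0366, and 0.193 without control replicate 1). Cdkn2c fell from 49.7, 51.1 and 52 FPKM to 20.1, 19.2 and 19.6, and Cdkn3, a phosphatase counted with them that is itself high in dividing cells, by 2.46 ± 0.26. Cdkn2a did not pass (-0.21 ± 0.21), although it did with a replicate block over the 6 libraries (adjusted p = 0.0171). The 6 tested members thus had 3 rises and 2 falls and a median of 0.03, beside 30% of all genes tested that rose and 30.7% that fell.

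The Polycomb methyltransferases Ezh2 and Ezh1 also moved apart. Ezh2, the form of dividing cells, was 71.2, 77 and 88.8 FPKM in control and 19.1, 19.5 and 18 at day 2. Ezh1, its counterpart in resting tissue, was 6.06, 5.59 and 5.63 FPKM and then 14.7, 14.1 and 16.3, a rise of 1.24 ± 0.09 (adjusted p = 2.81e-12). No library of either group overlapped the other, and by mean FPKM Ezh2 was still above Ezh1 at day 2. Of 16 tested genes of chromatin silencing and HMG proteins 13 fell. Among them were Uhrf1 and Dnmt1, which copy DNA methylation onto new strands (-4.91 ± 0.27 and -1.84 ± 0.10), and the chromatin protein Hmgb2 (-3.78 ± 0.17).

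**Figure D3:**
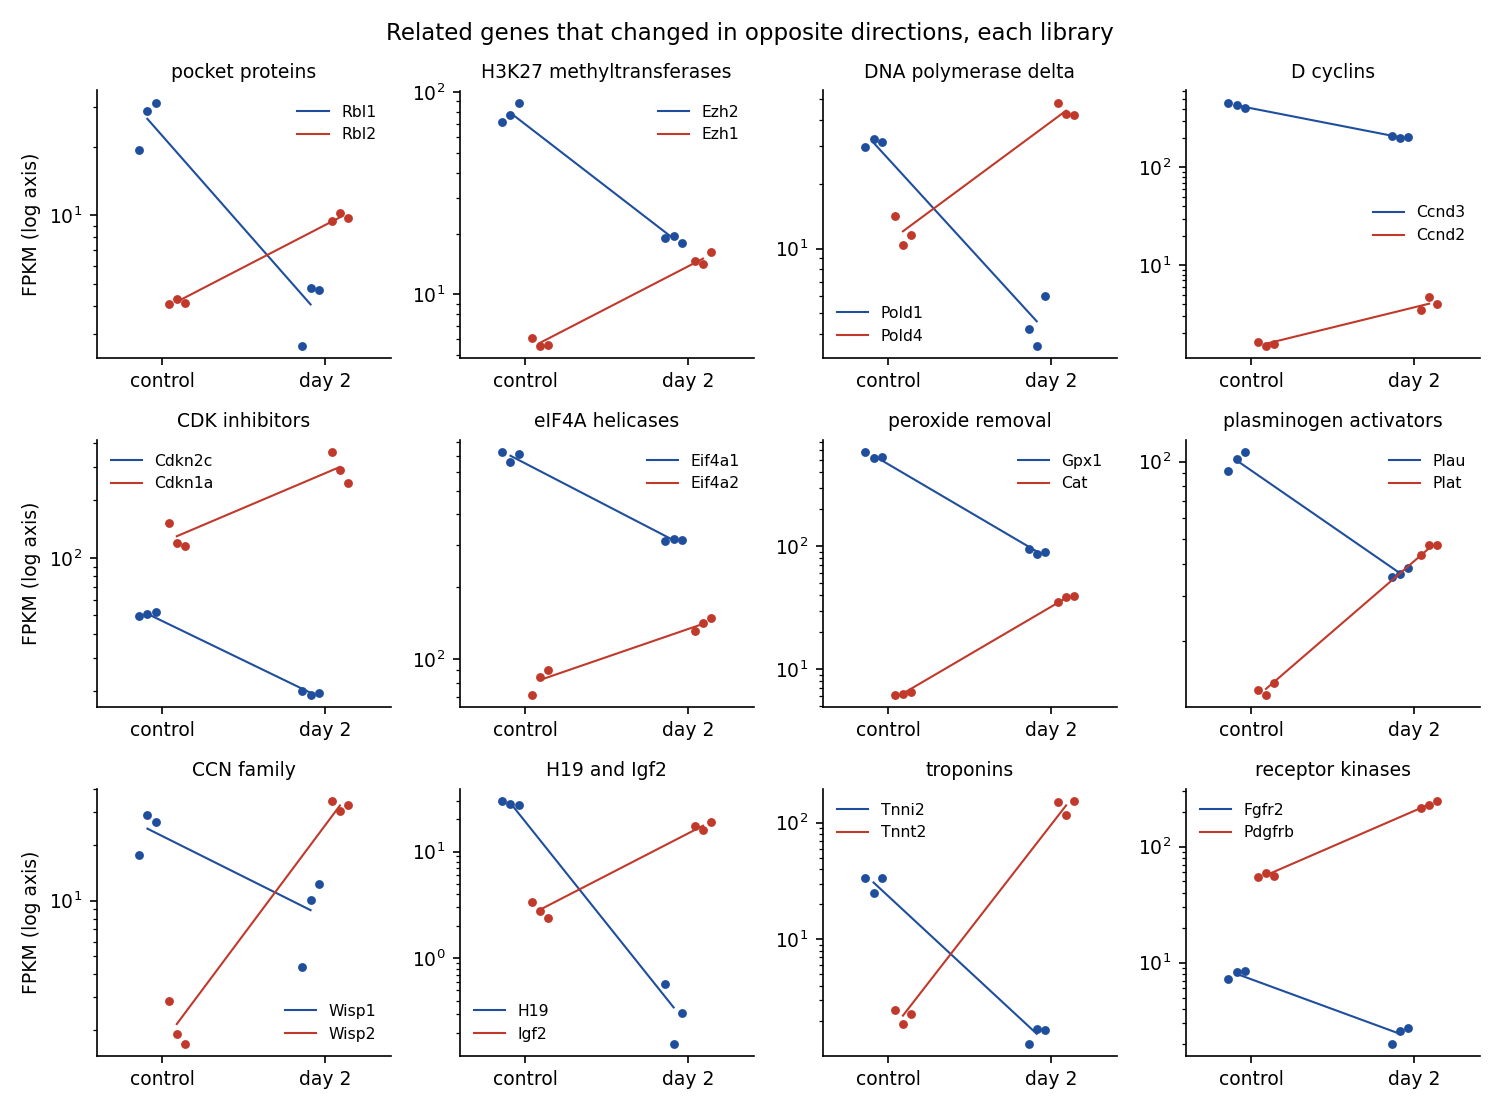
FPKM of each library (points, log axes) in control and at day 2 for 12 pairs of related genes, with lines between the group means. The pairs were chosen for their opposite changes, so the panels do not show how often related genes part. In each panel the blue gene fell and the red gene rose, and Rbl1 and Rbl2, Pold1 and Pold4, Plau and Plat, Wisp1 and Wisp2, H19 and Igf2, and Tnni2 and Tnnt2 changed order.

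Transcripts for nuclear pores, import and lamins fell. Of 28 tested genes of the nuclear pore and import 23 fell and none rose, with a median of -1.08. The importin Kpna2 was 344, 390 and 430 FPKM in control and 47.3, 59.4 and 48.1 at day 2. The transport GTPase Ran was 846, 675 and 748 FPKM and then 252, 195 and 194, and its activating protein Rangap1 fell by 2.45 ± 0.11. Of the lamins, which line the nucleus, the B-type Lmnb1 and Lmnb2 fell by 3.64 ± 0.18 and 3.25 ± 0.10. The A-type Lmna, named after its values were seen, fell by 0.75 ± 0.07. The lamins are part of a list of tubulins and intermediate filaments in which 12 of 16 tested genes fell and 1, the keratin Krt8, rose. Tubulin Tuba4a went from 522, 490 and 496 FPKM to 98.9, 102 and 93.1.

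Genes that build ribosomes and process RNA fell by smaller amounts, and the ribosomal proteins themselves did not follow. Of 41 tested genes of RNA polymerase I and the nucleolus 38 fell and none rose, with a median of -0.68. Of 44 cytosolic ribosomal protein genes 33 did not pass, 8 rose and 3 fell (median 0.08), with a replicate block 11 rose and 5 fell, and with upper quartile scaling 15 rose. Their summed share of all FPKM was 10.8% to 12.1% in control and 12.1% to 12.8% at day 2. Rps6 is listed at 0 in all 6 libraries, and Rps9, Rps20 and Rplp2 are at 0 in most, so these sums leave some members out. Of 19 RNA polymerase III genes 12 did not pass, 5 fell and 2 rose, against 30.7% of all genes tested that fell and 30% that rose. Maf1, the repressor of that polymerase, was 38.6, 40.1 and 36.1 FPKM in control and 57.9, 55.6 and 62.6 at day 2, a rise of 0.60 ± 0.09.

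Translation factors parted into opposed sets. Of 45 tested, 27 fell, 8 rose and the median was -0.34. Among the falls was the cap-binding group. Eif4e was 87.7, 87 and 92.1 FPKM in control and 41.6, 39.5 and 39.4 at day 2, and the helicase Eif4a1 fell from 729, 660 and 713 FPKM to 310, 315 and 312. Its relative Eif4a2 rose from 71.5, 84.9 and 90.1 FPKM to 131, 142 and 148. The other rises included the elongation factors Eef1a1 (0.45 ± 0.11) and Eef2 (0.48 ± 0.13) and the initiation factor subunit Eif3f (0.72 ± 0.09). Also higher was Eef2k, the kinase that switches Eef2 off, at 7.68, 7.87 and 8.58 FPKM in control and 23.8, 25.6 and 26 at day 2. The day 2 libraries of Eef2k were all above the control libraries.

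Of 45 tested splicing factors 36 fell, with a median of -0.83. The small nuclear ribonucleoprotein Snrpa1 was 102, 96 and 99.6 FPKM in control and 22.2, 24.1 and 19.7 at day 2. The 3 that rose were Snrnp70 and the kinases Clk1 and Clk4, which phosphorylate splicing proteins. Clk1 went from 29.2, 30.6 and 29.4 FPKM to 59.7, 44.2 and 54.3. The 3 day 2 libraries of Clk4 spread from 6.78 to 11.2 FPKM, and without day 2 replicate 1 neither Clk4 nor Snrnp70 passed (adjusted p = 0.0588 and 0.1). Of 27 chaperonins and folding proteins 21 fell, and the largest change was a rise. The small heat shock protein Cryab was 41.1, 32.1 and 30.3 FPKM in control and 234, 207 and 194 at day 2, an increase of 2.59 ± 0.11, against a median of -0.72 for the list.

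Mitochondria-bound genes moved down by modest steps that were shared by most members. Of 60 tested genes of the mitochondrial ribosome 49 fell and none rose (median -0.54), of 21 for mitochondrial protein import 19 fell and none rose (median -0.55), and of 54 for the respiratory chain and ATP synthase 33 fell (median -0.38). Mrpl12, a mitochondrial ribosomal protein, was 83.9, 65.9 and 68 FPKM in control and 29.2, 28.5 and 28 at day 2. Pyruvate dehydrogenase kinases Pdk1 and Pdk2, which close the route from pyruvate into the citric acid cycle, rose by 0.89 ± 0.15 and 0.72 ± 0.16, and pyruvate carboxylase Pc, which opens another, from 3.6, 5.02 and 4.31 FPKM to 7.8, 7.93 and 8.41. Of 21 citric acid cycle genes 12 fell and 4 rose, against 30.7% and 30% of all genes tested. Of 19 tested genes of glycolysis 12 fell and 2 rose, or 1 rose without any one of control replicates 1, 2 and 3 and day 2 replicates 1 and 2. The enolase Eno3 fell from 382, 353 and 348 FPKM to 90.6, 88.7 and 83.8. The regulatory enzyme Pfkfb4 rose from 2.11, 2.03 and 1.5 FPKM to 6.97, 6.46 and 4.02. The 4 rises among 10 genes of the pentose phosphate path and serine synthesis included the NADPH-making Pgd (1.06 ± 0.07) and Tkt (0.79 ± 0.07), and its 5 falls included the serine enzymes Phgdh (-0.98 ± 0.12), Psat1 (-1.05 ± 0.15) and Psph (-0.73 ± 0.14).

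Genes of cholesterol synthesis rose. Among 10 mevalonate genes 9 rose (median 1.94), and among 11 of the sterol arm all 11 rose (median 2.49). The 1 exception was Ggps1, which makes geranylgeranyl groups for proteins at a branch of the path. It was 4.58, 6.04 and 6.48 FPKM in control and 4.02, 5 and 5.33 at day 2, and the groups overlapped (adjusted p = 0.31). Fdft1, the step that commits to sterols, rose by 0.25 ± 0.07, the smallest rise in either arm. Insig1, which holds SREBP factors back when sterols are plentiful, was 25.4, 29.1 and 25 FPKM in control and 157, 180 and 168 at day 2. Srebf2 rose by 0.78 ± 0.09, and Srebf1 did not pass (0.09 ± 0.10).

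Fatty acid genes followed in part. Of 23 tested genes of fatty acid synthesis and desaturation 17 rose and 2 fell, with a median of 0.65. Acss2, which turns acetate into acetyl-CoA, was 2.69, 3.32 and 3.49 FPKM in control and 95.5, 113 and 87.4 at day 2, and Acly, which makes it from citrate, rose by 2.16 ± 0.10. The desaturase Scd2 was 108, 145 and 139 FPKM and then 424, 627 and 565. The falls were in Gpam and Dgat1, enzymes that join fatty acids into glycerolipids (-0.51 ± 0.19 and -0.31 ± 0.12), and without control replicate 3 neither passed. Lpin1, which acts between them, rose by 2.38 ± 0.15. Cpt1a, the gate of fatty acid oxidation in mitochondria, was 27.5, 33 and 34.2 FPKM in control and 11.4, 12.3 and 15.1 at day 2. CCAAT letters were in 6 of 7 matched mevalonate promoters and 7 of 9 of the sterol arm, against 38.8% of all genes tested. The sterol element forms searched, TCACCCCAC, TCACGCCAC and TCACACCAC on both strands, were in 0 of 7 and 0 of 9, and in 0.8% of all promoters. The promoter of Tm7sf2, a sterol reductase with the third largest rise of the ranked genes, holds CCAAT letters on its minus strand. They appear in capitals as their reverse complement.
Tm7sf2 (chr1:212789492-212789791, minus strand): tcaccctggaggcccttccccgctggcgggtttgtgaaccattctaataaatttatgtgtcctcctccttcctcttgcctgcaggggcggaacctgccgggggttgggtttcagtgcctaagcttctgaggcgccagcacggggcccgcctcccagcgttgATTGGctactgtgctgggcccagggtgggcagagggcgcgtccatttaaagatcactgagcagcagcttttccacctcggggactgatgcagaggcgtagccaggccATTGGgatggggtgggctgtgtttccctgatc

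Lysosomal and autophagy lists rose, and the members that fell were few. Of 15 tested lysosomal proteases 11 rose and 3 fell (median 1.08), of 18 glycosidases and sulfatases 14 rose and 1 fell (median 0.76), and of 37 autophagy genes 24 rose and 3 fell (median 0.47). The autophagy falls were not firm, with 5 under a replicate block over the 6 libraries, 1 without control replicate 1 and 0 with upper quartile scaling. The proteases that fell were Ctsl (371, 331 and 371 FPKM to 277, 276 and 252), Ctsz (-0.58 ± 0.08) and Prcp (-0.83 ± 0.16). The tetraspanin Cd63, the most abundant of the lysosomal membrane genes, was 2530, 2621 and 2943 FPKM in control and 1409, 1732 and 1491 at day 2, while 16 of the 21 genes of that list rose. The sterol carrier Npc2 was 151, 152 and 144 FPKM and then 446, 420 and 417. Of the MiT factors and amino acid sensing genes 11 of 24 rose and 3 fell, or 1 fell without control replicate 3. Shares over all genes tested were 30% for rises and 30.7% for falls. Flcn and Fnip2, partners that restrain Tfeb and its kin at the lysosome, rose by 0.74 ± 0.10 and 1.09 ± 0.18.

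Genes of collagens and of the enzymes that mature them rose. All 6 tested fibrillar collagens and all 4 other tested collagens rose (medians 1.58 and 1.55), and these are 6 of 10 and 4 of 11 in the table, since the others did not reach the filter. Fibrillar collagens held 0.663% to 0.760% of all FPKM in control and 2.04% to 2.14% at day 2. Of 21 tested processing and cross-linking genes 18 rose and none fell (median 0.54). Bmp1, the procollagen protease, was 68.3, 62.9 and 60.8 FPKM in control and 202, 178 and 192 at day 2, and the prolyl hydroxylase P4ha1 rose by 1.11 ± 0.08. Loxl1, a cross-linking oxidase, did not pass (-0.06 ± 0.09).

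Of 28 tested elastic fibre, laminin and matricellular genes 20 rose and 4 fell (median 1.08). Those that fell were Spp1, Tgfbi, Wisp1 and Tnc. Osteopontin (Spp1) was 176, 163 and 173 FPKM in control and 31.7, 29.1 and 26.9 at day 2. Wisp1 and Wisp2, both of the CCN family, crossed. Wisp1 was 17.7, 29.2 and 26.6 FPKM and then 4.41, 10 and 12.2, and Wisp2 was 2.86, 1.91 and 1.69 and then 34.7, 30.6 and 32.7. The heparan sulfate proteoglycan Gpc1 fell from 696, 728 and 684 FPKM to 225, 291 and 227, against rises of 1.72 ± 0.09 in Bgn and 1.64 ± 0.07 in Gpc4.

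Among 22 tested matrix proteases and inhibitors 11 rose and 7 fell, against 30% and 30.7% of all genes tested, so the falls lie near that share. The gelatinase Mmp2 was 0.716, 1.25 and 0.856 FPKM in control and 34.8, 31.4 and 37.9 at day 2, and the aggrecan-cutting protease Adamts1 was 7.84, 9.73 and 10.4 and then 146, 175 and 198. Both were among the 15 largest rises of the ranked genes. Genes of the urokinase arm of plasminogen activation fell. The activator Plau was 91.7, 102 and 109 FPKM in control and 35.4, 36.6 and 38.3 at day 2, its receptor Plaur fell by 1.37 ± 0.12, and the inhibitor Serpine2 fell by 1.48 ± 0.11. The other activator, Plat, rose from 12.9, 12.3 and 13.7 FPKM to 43.3, 47.2 and 47.3, above Plau in every day 2 library. Of 15 integrins and adhesion receptors 11 rose and 3 fell. Itgbl1, an integrin-like protein without a membrane anchor, had the largest rise of the ranked genes (2.09, 1.61 and 1.43 FPKM to 159, 195 and 231). Ncam1 and the fibronectin receptor subunit Itga5 fell, by 1.29 ± 0.21 and 0.48 ± 0.07.

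Several growth factor ligands and a smaller set of their receptors rose. Of 18 tested ligands 12 rose and 5 fell (median 1.14), and of 17 receptor tyrosine kinases 7 rose and 5 fell (median 0.10). Over all genes tested 30% rose and 30.7% fell, so the receptor counts lie near that share, and the lists were not tested against each other. The neurotrophin Bdnf was 2.94, 2.89 and 2.92 FPKM in control and 23.4, 23.4 and 21.5 at day 2. Vegfa, the endothelial growth factor, was 18.7, 18.4 and 20.6 FPKM and then 110, 89.7 and 101, and Gas6, the ligand of the Axl family, 126, 128 and 113 and then 632, 629 and 623. In all 3 genes every starved library lay above every control library, as in 2736 of the 8940 genes tested. Falls included those of Csf1, Kitlg, Hbegf and Pdgfa, by 0.34 to 1.22 (log2), and Pdgfa did not pass with upper quartile scaling (adjusted p = 0.0913). The receptor Pdgfrb, which binds the PDGF of serum, was 54.6, 58.9 and 56.3 FPKM and then 214, 229 and 248. Fgfr2 fell from 7.2, 8.29 and 8.51 FPKM to 2.01, 2.6 and 2.71.

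The insulin-like growth factor axis held a pair of imprinted neighbours that moved apart. H19, the noncoding RNA next to Igf2, was 30, 28 and 27.3 FPKM in control and 0.569, 0.159 and 0.309 at day 2, a log2 change of -4.46 ± 0.12. Igf2 was 3.37, 2.79 and 2.39 FPKM and then 17.5, 15.9 and 19, a rise of 2.27 ± 0.16. H19 was above Igf2 in each control library and below it in each day 2 library. Grb10, an imprinted brake on the insulin receptor, fell by 1.37 ± 0.09, and the adaptor Irs2 rose by 1.02 ± 0.11. Igf1r did not pass (0.37 ± 0.31, adjusted p = 0.312), and with a replicate block it did (adjusted p = 0.0324).

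In the TGF-beta and BMP list the ligand and the usual targets of BMP went opposite ways. Bmp4 was 12.9, 10 and 12.7 FPKM in control and 67, 61.2 and 68.5 at day 2. The Id genes, inhibitors of differentiation factors that BMP and serum both raise, fell. Id1 was 234, 176 and 200 FPKM and then 26.9, 22.4 and 18.2, Id2 219, 242 and 235 and then 7.47, 8.15 and 6.52, and Id3 915, 738 and 784 and then 134, 115 and 119. Id4 did not pass (-0.16 ± 0.12, adjusted p = 0.283), with 21.9, 22 and 21.6 FPKM in control and 22, 18.6 and 18 at day 2. Of the 30 tested members 16 rose and 8 fell, with a median of 0.52. Of all genes tested 30% rose and 30.7% fell, so the falls in this list lie near that share.

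Of 17 tested Wnt pathway genes 11 rose and 1 fell, or 0 fell without control replicate 2 or without day 2 replicate 1. The Dishevelled inhibitor Nkd2 was 0.378, 0.356 and 0.409 FPKM in control and 14.3, 15 and 12.9 at day 2, and Tcf7l2, a transcription factor of the path, rose by 1.30 ± 0.14. The Notch ligand Jag1 was 12, 18.2 and 16.6 FPKM and then 87, 105 and 105, while the Notch-modifying Lfng fell from 65.6, 69.8 and 66.8 to 23.1, 28 and 21.6. Of the immediate early genes 8 of 22 fell and 5 rose, and with a replicate block over the 6 libraries 8 fell and 8 rose. Over all genes tested 30.7% fell and 30% rose, so the main counts lie near those shares. Fosl1 fell from 36.2, 35.5 and 33.7 FPKM to 8.54, 8.18 and 9.88 and Klf10 by 2.03 ± 0.13, whereas Egr1 did not pass (-0.09 ± 0.15). Feedback regulators of ERK also divided. Dusp1 rose from 42.6, 37.1 and 37.2 FPKM to 128, 133 and 128. Etv4 fell by 1.63 ± 0.15, and Errfi1 fell from 55, 58.2 and 65.4 FPKM to 17.6, 21 and 22.8. Of 27 tested KLF, FoxO and growth restraint genes 16 rose and 1 fell (median 0.73), or 0 fell without control replicate 2 or without day 2 replicate 3. Klf4, a factor that restrains division, was 6.99, 7.82 and 5.06 FPKM in control and 54.9, 53.4 and 50 at day 2, and Pik3ip1, an inhibitor of PI3 kinase, rose by 2.32 ± 0.16.

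Interferon and hypoxia-type genes rose without either stimulus being named in the labels. Of 24 tested interferon and MHC class I genes 19 rose and none fell (median 0.71), against 30% of all genes that rose. Isg20, an RNA exonuclease (named after its values were seen), was 1.93, 1.83 and 0.97 FPKM in control and 16.8, 11.6 and 16.1 at day 2. Irf9, which carries the interferon signal, rose by 0.89 ± 0.10. Of 19 tested hypoxia-type genes 15 rose and 1 fell (median 0.72), or 0 fell without day 2 replicate 3. The peptide hormone Adm was 7.31, 6.03 and 6.68 FPKM in control and 41.7, 32.6 and 38.2 at day 2, and the mitophagy receptor Bnip3 rose by 1.08 ± 0.08. The glucose transporter Slc2a1 did not pass (0.00 ± 0.15) and its libraries overlapped. The cause of the rises in either list was not tested.

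A few muscle-type genes changed, in both directions, while 15 of the 30 in the table were under 1 FPKM in all 6 libraries. The myogenic factor Myod1 was 216, 243 and 253 FPKM in control and 3.06, 4.61 and 2.85 at day 2. The troponins did not share a direction. Fast troponin I (Tnni2) was 33.4, 24.9 and 33.8 FPKM and then 1.28, 1.71 and 1.66, and Tnnc2 fell by 2.40 ± 0.47. Tnnt2, the cardiac troponin T, was 2.49, 1.88 and 2.29 FPKM and then 151, 116 and 155, while Tnnc1 and Tnnt3 rose by 0.59 ± 0.16 and 1.28 ± 0.37. Of 14 tested muscle genes 3 rose, 5 fell and 6 did not pass, out of 30 in the table, since the others did not reach the filter. These counts lie near the shares over all genes tested, of which 30% rose and 30.7% fell.

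A pair of peroxide-removing enzymes moved in opposite directions. Catalase (Cat) was 6.22, 6.3 and 6.5 FPKM in control and 35.5, 39 and 39.4 at day 2, and glutathione peroxidase Gpx1 was 587, 517 and 532 and then 95.5, 87.1 and 89.5. Both changes were without overlap (2.41 ± 0.08 and -2.57 ± 0.12), and Gpx1 stayed above Cat in every library. The antioxidant list as a whole had 6 rises and 11 falls among 30, with 13 that did not pass. Beside these counts, 30% of all genes tested rose and 30.7% fell. The transferrin receptor Tfrc fell by 1.51 ± 0.12. The metallothionein Mt1 was 1.71, 15.9 and 17.9 FPKM in control and is listed at 0 in all 3 day 2 libraries.

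**Figure D4:**
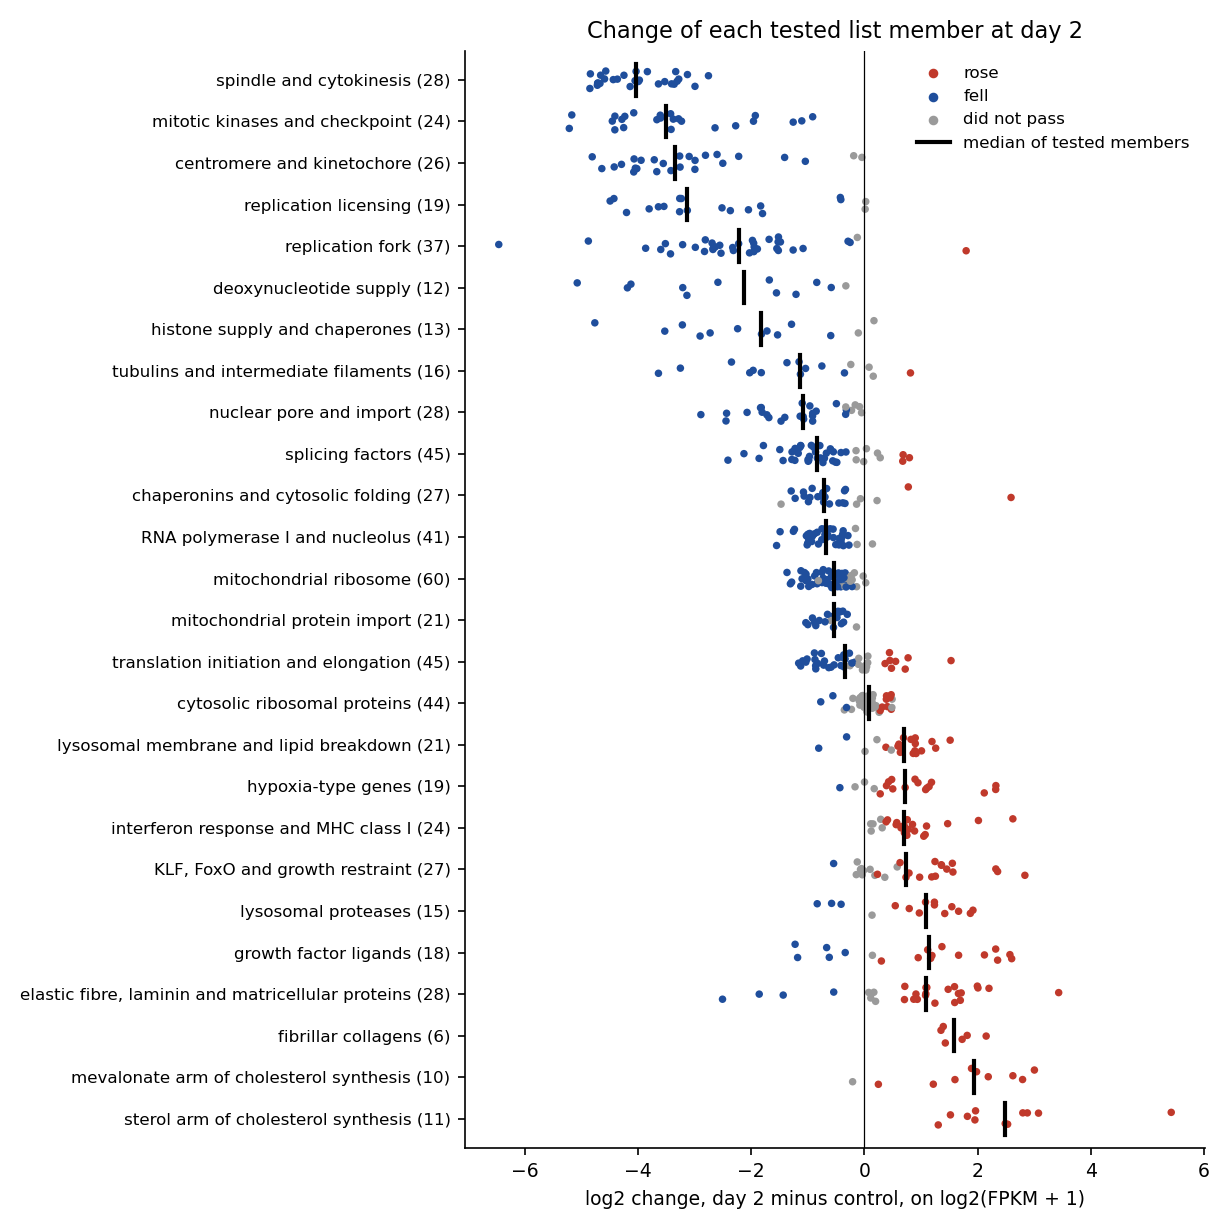
Log2 change from control to day 2 (x axis) of each tested member of 26 lists, with the number tested in brackets, points coloured by call and a bar at each list's median. Among the lists shown, division lists lie at medians from -4.04 to -1.82, and lists from tubulins to cytosolic ribosomal proteins between -1.14 and 0.08. The matrix and cholesterol lists shown lie between 1.08 and 2.49. Division and matrix lists with smaller medians are not shown, among them CDK inhibitors (0.03), cell cycle ubiquitin ligases (-0.44) and matrix proteases and inhibitors (0.18).

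Levels in the later groups show which changes of day 2 lasted, and are given as group means ± SD (n = 3) without a test. Genes picked for a high value at day 2 in these libraries are favoured to peak there. The calls also rest on the control libraries that day 16 is set against, which favours later means on the same side of control. Mmp2 was 34.7 ± 3.25 FPKM at day 2, 5.13 ± 0.251 at day 4 and 0.885 ± 0.231 at day 6, near its control mean of 0.941 ± 0.277. Aldh3a1, an aldehyde dehydrogenase, went from 2.39 ± 0.324 FPKM in control to 82.5 ± 8.32 at day 2 and 0.23 ± 0.0271 at day 16, below control. Tnnt2 had dropped by day 6 from 141 ± 21.3 FPKM to 10.7 ± 1.03, and Klf4 from 52.8 ± 2.51 to 5.4 ± 0.843 at day 16. All 6 tested fibrillar collagens had their highest mean of the 9 starved groups at day 2, and all 6 were below control at day 16. Of all 665 genes that rose at least 2-fold, 188 had their highest starved mean at day 2 and 44 were below control at day 16. Col1a1 was 2324 ± 216 FPKM in control, 6250 ± 303 at day 2 and 1202 ± 134 at day 16.

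Other changes held or grew. Itgbl1 stood at 195 ± 35.8 FPKM on day 2 and 206 ± 15.4 on day 16, and Adamts1 at 173 ± 26 and 535 ± 51.9. Nkd2 grew from 14.1 ± 1.07 FPKM to 95.9 ± 6.75 at day 10, and Vegfa from 100 ± 9.98 to 360 ± 5.75 at day 6. The Polycomb pair went on to change order. By mean FPKM, Ezh1 was above Ezh2 in every group from day 6 on, and at day 16 they were 20.3 ± 0.254 and 7.76 ± 0.482. Among the falls, all 15 of the largest of the ranked genes were below control at day 16, as were 745 of the 754 genes that fell at least 2-fold. H19 was 0.346 ± 0.208 FPKM at day 2 and 0.0265 ± 0.0458 at day 16. Id2 climbed back from 7.38 ± 0.818 FPKM to 98.5 ± 5.87 at day 16, under its control mean of 232 ± 11.7. Spp1 climbed from 29.2 ± 2.39 FPKM to 376 ± 20.7 at day 10, above its control mean of 171 ± 7.06.

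**Figure D5:**
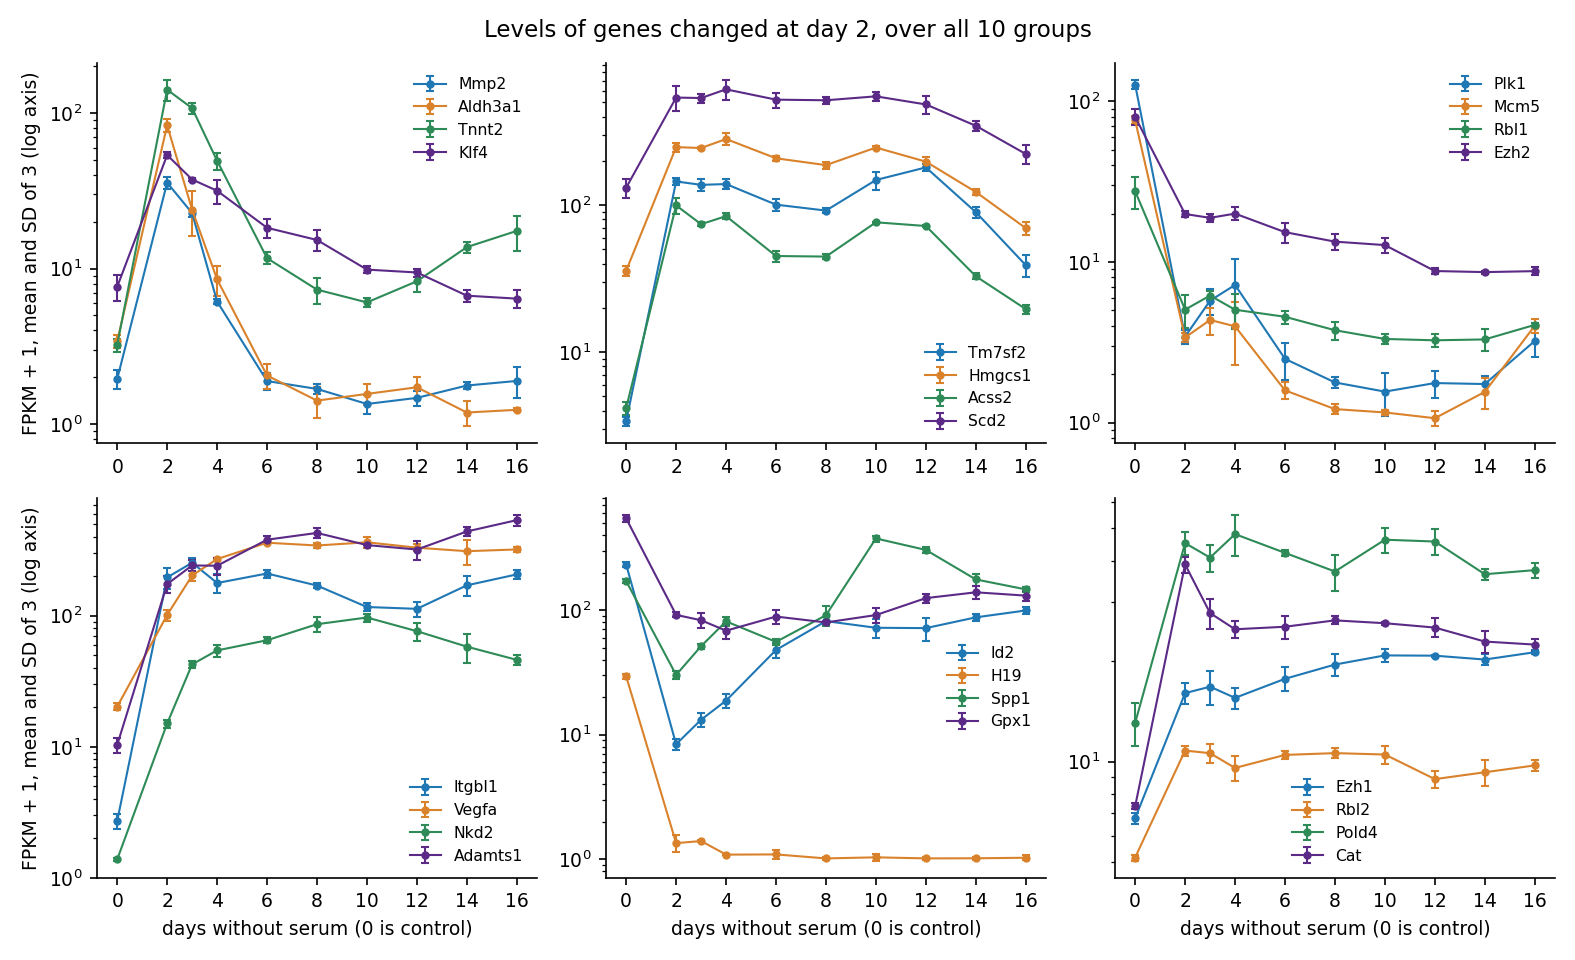
Mean FPKM + 1 with SD of 3 libraries (log axes) over days without serum, with control at 0, for 24 genes that changed at day 2. Mmp2, Aldh3a1, Tnnt2 and Klf4 return toward or below their control levels by day 16, and Nkd2, Vegfa and Adamts1 go on rising past day 2.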

How the data were processed

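REF cells were sequenced as total RNA in 30 libraries, 3 in each of 10 groups. The tools named are TopHat2 2.1.1, Cuffnorm 2.2.1 and Cufflinks, and the build is rn6, per the submitters' processing notes. The authors deposited 1 table of FPKM values for 17353 genes, with no counts, so depth is unknown, and the annotation and the scaling option are not given in the sources used here. From these values log2(FPKM + 1) was computed (pseudocount 1 FPKM), and genes with a mean of at least 1 FPKM over the 30 libraries were kept. limma 3.58.1 in R 4.3.3 fitted the 10 group means with 20 residual degrees of freedom and a mean-variance trend. The contrast day 2 minus control was tested with Benjamini-Hochberg adjustment over 8940 genes at 0.05. The procedure was tested on simulated data. Every adjusted p in the text comes from this fit unless another is named.

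The labels call the samples biological replicates and do not say that they came from separate cultures, so p-values measure the spread between these samples, which may be technical. Replicate numbers are shared between groups. Deviations from the group means correlated between control and day 2 samples of the same number (0.592, 0.209 and 0.188 for replicates 1, 2 and 3, across genes). Some samples of different number also correlated, the highest being control replicate 2 with day 2 replicate 3 (0.291), and over all pairs of groups the median was 0.316, 0.096 and 0.173 for replicates 1, 2 and 3. Replicate 1 thus stood apart more clearly than replicates 2 and 3 did from each other. All 3 same-number values passed 0.1, the limit set for treating the numbers as pairs. The main fit still has no block, because the labels do not say what a replicate number shares. A fit with the replicate as a block was run as an alternative, and in it 477 calls were gained and 2 lost. The gene lists and the rule for naming genes were chosen with earlier results of these data known. Genes past the threshold were ranked by size if their mean was at least 5 FPKM over the 6 libraries and their groups did not overlap. Short RNA genes and symbols starting with LOC, RGD, AABR or MGC were left out of this ranking. Named genes are its 15 largest rises and 15 largest falls. To these come, from each list, up to 6 members with the smallest adjusted p in each direction, up to 4 that did not pass and every member against its list's majority. All members of lists of at most 12 genes were also open to naming, as were members listed at 0 in one group. Promoter sequences are from RefSeq, build GRCr8, of which 6972 matched by symbol and 436 by synonym.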

Additional observations from a re-analysis of the deposited data

How the results depend on the processing

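Of 21 alternatives, none turned a called gene to a call of the opposite sign. The genes that rose at least 2-fold numbered 344 with a pseudocount of 5 FPKM, against 665, because a larger pseudocount shrinks the folds of low genes. Leaving out 1 of the 6 libraries in turn gave 2383 to 2729 rises and 2495 to 2660 falls. With the replicate block for the pairing by number, 2938 genes rose and 2962 fell over the 30 libraries, and 3047 rose and 3145 fell over the 6 alone. Of the genes named, Igf1r passed with the block in both fits, and Cdkn2a and Tfeb passed only with the block over the 6 libraries. Upper quartile scaling moved the median of all genes to 0.11 (log2), with 3239 rises and 2252 falls, and quantile normalization gave 2972 and 2496. A minimum of 5 FPKM left 7345 genes and fewer tested members in several division lists. Exact zeros and low genes are the least certain values, since no counts give their precision.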

Other observations

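The counts of some further lists are set here against 30% of all genes tested that rose and 30.7% that fell, and several lie near those shares. Of 16 tested circadian clock genes 9 rose and 2 fell. The repressor Bhlhe40 was 4.57, 5.81 and 5.54 FPKM in control and 14.7, 15.4 and 19 at day 2. Nfil3, also a repressor, fell by 0.90 ± 0.15, and Cry1 fell by 0.52 ± 0.13. Per2 did not pass (-0.15 ± 0.12). Of 23 tested axon guidance ligands and receptors 10 rose and 2 fell, 11 missed the threshold and the median change was 0.19, and with a replicate block over the 6 libraries 12 rose and 4 fell. Secreted semaphorins were among the rises. Sema3d was 0.138, 0.111 and 0.0784 FPKM in control and 6.27, 10.9 and 12.2 at day 2, and Sema3b was 2.19, 2.09 and 2.12 and then 19.7, 16.2 and 18.8.

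Of 18 tested ATF4 and starvation response genes 8 rose and 5 fell, without a common direction. Ddit4, an inhibitor of mTORC1, was 1.91, 2.65 and 1.63 FPKM in control and 11.5, 14.2 and 11 at day 2, and Atf5 was 78.5, 49.1 and 46.6 and then 327, 198 and 191. Asparagine synthetase Asns, a usual target of ATF4, did not pass (-0.13 ± 0.08). Of 13 tested cytokines and chemokines 9 rose and 1 fell, or 0 fell without control replicate 3 and 2 fell with a replicate block over the 6 libraries. The chemokine Cxcl12 was 87.5, 88 and 92.4 FPKM in control and 224, 205 and 231 at day 2. Il6 was low throughout, at 0.919, 0.539 and 1.37 FPKM and then 4.39, 5.72 and 4.66. Some genes were above 1 FPKM in every library of one group and listed at 0 in the other, for which no fold is given. Dpt, Lce1m and Scara5 are listed at 0 in control. Cacng1, Ccdc64b, Neil3, Syt13 and Vamp5 are listed at 0 at day 2.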
